A study of Mus musculus with 12 samples.

Results

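The 10 genes described here are protein genes of the mouse mitochondrial genome: mt-Nd1, mt-Nd2, mt-Nd4, mt-Nd5 and mt-Nd6 (subunits of NADH dehydrogenase, complex I), mt-Cytb (cytochrome b of complex III), mt-Co1, mt-Co2 and mt-Co3 (the catalytic core of cytochrome c oxidase, complex IV) and mt-Atp6 (the proton channel subunit of ATP synthase, complex V). They were taken by name from the 54146 genes in the files. Of the 10, 7 had enough counts to be tested among the 18628 genes tested, and mt-Co2, mt-Co3 and mt-Atp6 did not.

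Oxidative phosphorylation is carried out by complexes built from subunits of separate genomes. The circular mitochondrial genome supplies core subunits, and nuclear genes supply the remaining ones together with the polymerase, RNA-processing factors and ribosome proteins that act on mitochondrial genes. Both strands of the mitochondrial genome are transcribed as long precursors that are cut into single mRNAs, and only mt-Nd6 among its mRNAs is read from the light strand. Photoreceptors (PRs) are among the most energy-demanding neurons, and their mitochondria are packed in the inner segments.

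RNA was sequenced from the whole retina of 12 mice, 1 library per mouse, on a 129/SV background. The cKO mice came from a cross of Otx2 flox/flox with Crx-CreERT2, a tamoxifen-dependent Cre under Crx control, so the deletion was aimed at PRs while the RNA came from all retinal cells. The 3 P30 mice (numbered 1 to 3) were labelled only as control, with no alleles given, and were taken on day 0. The cKO mice received a single injection of tamoxifen at P30 and were killed 2, 4 or 8 d later: mice 4 to 6 at P32, mice 7 to 9 at P34 and mice 10 to 12 at P38. Deletion, tamoxifen and age changed together between P30 and the later ages and cannot be told apart. Sex read from the data was also uneven, with 3 females at P30, 2 females and 1 male at P32, and 1 female and 2 males at both P34 and P38. Each library was a separate mouse, so the spread below is between animals.

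The libraries held 29701483 to 60145034 counts on genes, at which 3 counts correspond to 0.0499 to 0.101 CPM (counts on a gene scaled to the size of its library). Reads with no unique position, which were not counted, made up 23.7 to 32.2% of the reads. P32 mouse 4 stood apart: it had the highest of these shares (32.2%), the lowest level of 6 of the 7 measured genes and the highest summed level of nuclear respiratory subunits, and the log2 fold changes of the measured genes that involve P32 are therefore also given without it. Otx2, whose cKO removes 1 coding exon, had 293 to 328 CPM over all exons at P30 and 307 to 377 CPM in the cKO mice, a measure that does not show the deletion. Summed CPM of 5 rod markers ranged from 53985 to 99717, so the libraries were rich in retinal transcripts as labelled, while 7 lens markers ranged from 238 to 37949 CPM between mice. The lens markers were highest in P32 mouse 4 (37949 CPM), P30 mouse 3 (33884 CPM) and P32 mouse 5 (28564 CPM).

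The first result concerned which of the 10 genes could be seen at all. Over the 12 libraries together, mt-Co2 had 1 count, mt-Co3 had 0 and mt-Atp6 had 4, all 4 of them in P34 mouse 8. By contrast mt-Cytb had 3314589 counts, mt-Co1 2693883, mt-Nd1 2175005, mt-Nd5 1435720, mt-Nd4 1187870, mt-Nd2 1056445 and mt-Nd6 18619. The genes without counts lie on the same precursor as those with counts, between mt-Co1 and mt-Nd4. For a gene whose reads can be counted, a single library with 0 counts allows up to 0.0499 to 0.101 CPM by counting error alone. Where nearly every read would fit another place, 0 counts set no such limit.

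Reads were 50 bases long and a read that matched more than 1 place was not counted, so each mitochondrial mRNA was cut into all its 50-base windows and these were looked up in annotated transcripts of the other chromosomes (GENCODE M21, GRCm38). For mt-Co2 all 635 windows were also found elsewhere, for mt-Co3 734 of 735 and for mt-Atp6 629 of 632. The shared windows lay in annotated pseudogenes, which are insertions of mitochondrial DNA in the nuclear genome. For mt-Co2, 632 windows were in Gm28661 and 224 in Gm13341 on chromosome 2, which held 1169 counts over the 12 libraries. Windows of mt-Atp6 matched 2 annotated genes, of which only Gm10925 was examined. Gm28661, on the minus strand of chromosome 1 from 24614885 to 24615565, was identical to mt-Co2 at 681 of 681 bases. Gm10925 (24613974 to 24614651) matched mt-Atp6 at 678 of 678 bases, and Gm28437 (24613189 to 24613971) matched mt-Co3 at 783 of 783. The first 100 coding bases of these genes are shown because a read from either place is the same read. The sequences, on the strand of the mRNA, are from chrM:7013-7112, chr1:24615466-24615565 (minus strand), chrM:7927-8026 and chrM:8607-8706.
mt-Co2: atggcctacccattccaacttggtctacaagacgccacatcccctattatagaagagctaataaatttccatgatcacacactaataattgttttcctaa
Gm28661: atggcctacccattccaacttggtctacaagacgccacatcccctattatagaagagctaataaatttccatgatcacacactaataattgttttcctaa
mt-Atp6: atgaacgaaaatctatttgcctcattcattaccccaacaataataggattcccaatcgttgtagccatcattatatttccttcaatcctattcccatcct
mt-Co3: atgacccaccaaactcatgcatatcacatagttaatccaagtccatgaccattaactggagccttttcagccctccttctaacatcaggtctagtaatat
The same stretches of Gm10925 and Gm28437 were letter for letter those of mt-Atp6 and mt-Co3.

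**Figure D1:**
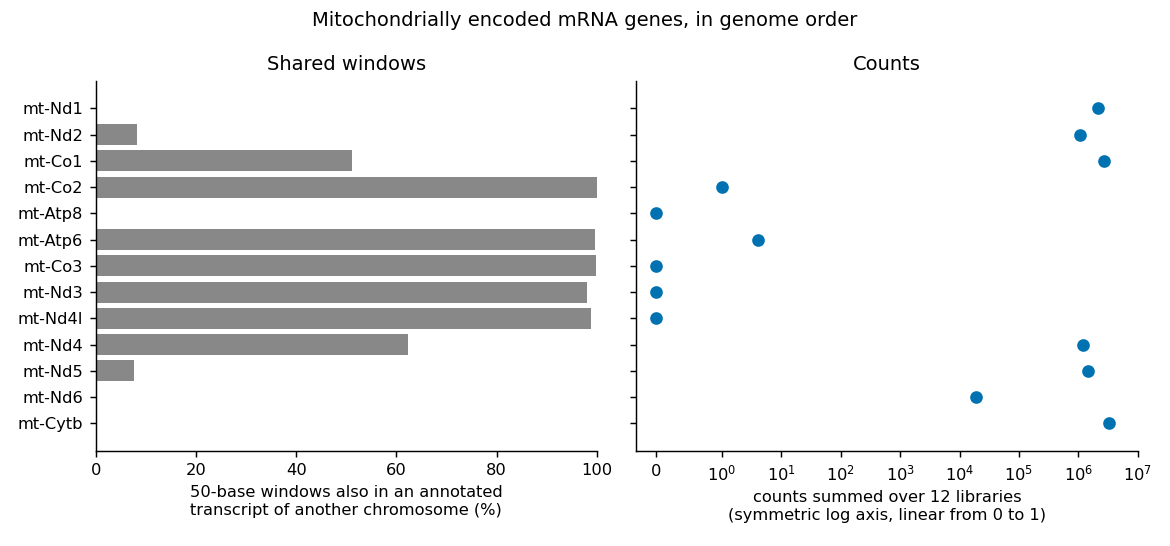
Share of 50-base windows of each mitochondrially encoded mRNA gene that also occur in an annotated transcript of another chromosome (left, bars, percent) and counts summed over the 12 libraries (right, points, symmetric log axis). The genes with at least 97.99% of windows shared have 0 to 4 counts, and mt-Atp8 has 0 counts with no shared window.

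Gm28661, Gm10925 and Gm28437 belong to a block of 7 pseudogenes on chromosome 1, from 24611535 to 24616197 (4663 bases), that runs through the mitochondrial gene order. The 7 together held 1156 counts in the 12 libraries, of which 984 were on Gm28438, the copy of mt-Nd3, and at most 136 were on any 1 of them in any library. The small mRNA genes outside the list of 10 went the same way: mt-Nd3 (293 of 299 windows shared) and mt-Nd4l (245 of 248) both had 0 counts. The exception was mt-Atp8, which had 0 counts although none of its 155 windows was found in an annotated transcript. Between Gm10925 and Gm28661 lie 233 bases of chromosome 1 with no annotated transcript, the same length as the 233 mitochondrial bases from 7694 to 7926 between the matching parts of mt-Co2 and mt-Atp6, where most of mt-Atp8 lies; the sequence of that stretch was not read here. Windows were searched in annotated transcripts only, so an unshared window is not known to be unique in the genome.

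Sharing was partial in mt-Co1 (765 of 1496 windows) and mt-Nd4 (827 of 1329), small in mt-Nd2 (81 of 989) and mt-Nd5 (135 of 1775), and 0 in mt-Cytb, mt-Nd1 and mt-Nd6. The shared part of mt-Nd4 was its bases 1 to 876, identical to Gm28439 at 876 of 876. In mt-Co1, 430 windows were shared with Gm29216 of the chromosome 1 block and 411 with Gm13340 on chromosome 2. Gm29216 was identical at 486 of 492 bases, with the last difference at base 1066 of mt-Co1. The mt-Co1 gene also shows how a read can be told apart: Gm13340 was a full-length copy with 1508 of 1545 bases identical and 37 differences. Its first 100 bases are shown with the differences in capitals, from chrM:5328-5427 and from chr2:22589548-22589647 (minus strand).
mt-Co1: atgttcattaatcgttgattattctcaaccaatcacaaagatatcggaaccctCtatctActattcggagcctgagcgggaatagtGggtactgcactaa
Gm13340: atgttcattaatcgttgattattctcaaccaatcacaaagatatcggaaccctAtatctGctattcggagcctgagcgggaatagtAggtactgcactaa
Counted from the first base of mt-Co1 these are C54A, A60G and G87A, and 50-base reads that cover none of them fit both places. Gm13340 held 52 to 129 counts per library against 102023 to 335984 for mt-Co1. For mt-Nd6, whose start is shown because it lies opposite the other genes, no shared window was found (chrM:13971-14070, minus strand).
mt-Nd6: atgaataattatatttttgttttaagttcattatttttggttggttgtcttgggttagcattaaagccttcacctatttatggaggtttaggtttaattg

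Since a read inside a shared window would not be counted, the order of the mRNA levels depended on the length used. At P30, in CPM per kilobase of gene, mt-Cytb was highest at 5749 ± 640 (SD, n = 3), followed by mt-Nd1 at 4482 ± 280 and mt-Co1 at 3409 ± 503 (SD). With CPM divided by the number of windows not shared, mt-Co1 came first at 7204 ± 1063 CPM per kilobase (SD, n = 3), and its range overlapped that of mt-Cytb (6006 ± 668). On the same scale mt-Nd1 (4724 ± 295) and mt-Nd4 (4714 ± 131) could not be ordered, since their ranges overlapped. Next came mt-Nd2 (2316 ± 191) and mt-Nd5 (1659 ± 335), which did not overlap each other. Last was mt-Nd6 at 77.9 ± 10.9, far under every other measured gene. The libraries were selected for poly(A) RNA, and of the ribosomal RNA genes of the same genome mt-Rnr1 had 42 to 86 counts per library and mt-Rnr2 had 76 to 140.

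The measured genes together took a few percent of all counts on genes. The P30 mice had 2.27, 2.35 and 2.497% of counts on them, the P32 mice 1.63, 2.00 and 2.42%, the P34 mice 3.38, 2.49 and 2.57%, and the P38 mice 3.29, 2.30 and 2.54%. Mouse 4 was the lowest, and P34 mouse 7 and P38 mouse 10 were the highest. The other mice of P34 and P38 lay at or near the P30 range.

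**Figure D2:**
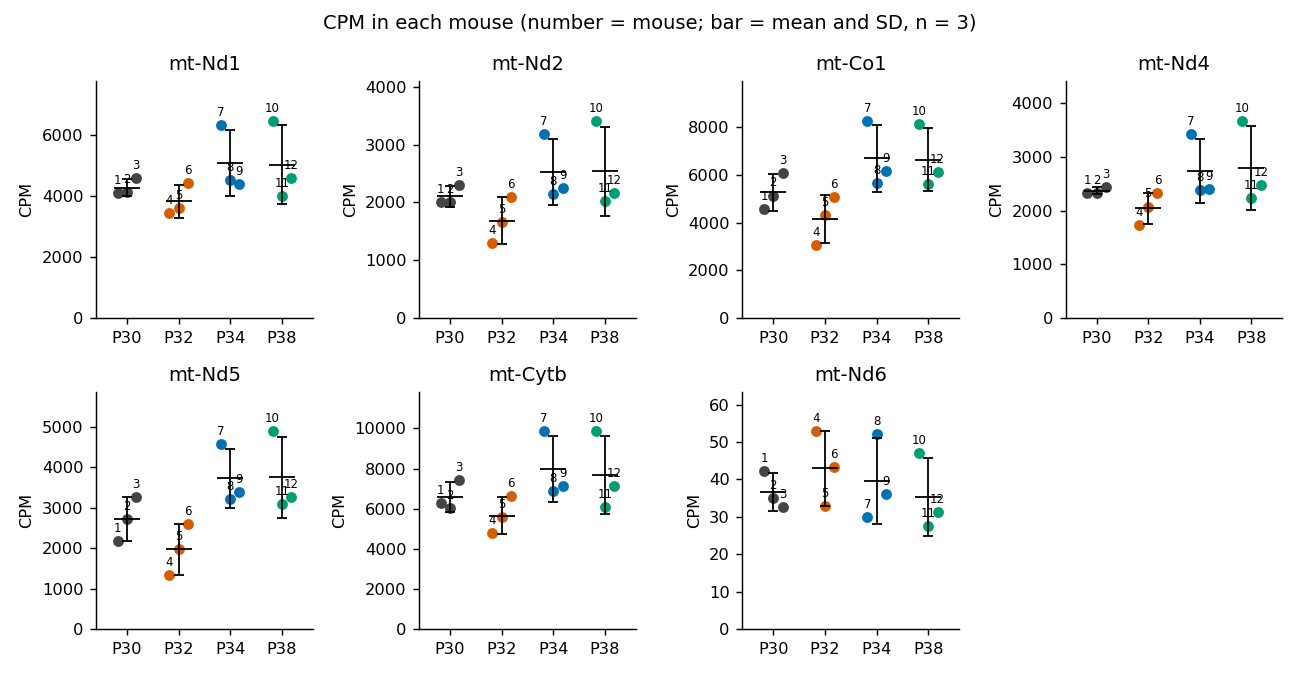
CPM of the 7 measured genes in each mouse by age, points numbered by mouse, with the mean and SD of 3 mice as bars. In the 6 genes of the heavy strand, mouse 4 is lowest and mice 7 and 10 are highest, and mt-Nd6 does not follow them.

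None of the measured genes was called between P30 and any later age in edgeR's quasi-likelihood fit. The call rule asked for a Benjamini-Hochberg adjusted p, over all genes tested, not above 0.05 together with a difference of 0.5 or more on the log2 scale. At P32, 0 of 7 were called beside 0% of all genes, at P34 0 of 7 beside 0.66%, and at P38 0 of 7 beside 0%. With the 9 cKO mice as 1 group, 0 of 7 were called beside 0.0537%. At an unadjusted p of at most 0.05 there were 0 of 7 members in each of these 4 comparisons, beside 5.64% of all genes (P32), 10.5% (P34), 5.64% (P38) and 2.63% (9 cKO mice), and DESeq2 called 0 members in each, beside 0.134, 1.98, 0.242 and 0.248% of all genes. The point estimates at P34 were positive for 7 of 7 members, beside 49.8% of all genes (median log2 fold change 0.27, all genes -0.0013). At P38 they were positive for 6 of 7, beside 48.2% (median 0.24, all genes -0.0091), and at P32 for 1 of 7, beside 48.5% (median -0.22, all genes -0.0088). The medians moved with single mice, while the count of positive members stayed at 1 of 7 at P32 whichever mouse was left out, was 6 or 7 of 7 at P34 and ran from 3 to 7 of 7 at P38. Without mouse 7 the P34 median was 0.09 (7 of 7 positive), without mouse 10 the P38 median was -0.00018 (3 of 7 positive), and without mouse 4 the P32 median was -0.11 (1 of 7 positive). Medians were farther from 0 without mouse 6 at P32 (-0.35) and without mouse 11 at P38 (0.38). In each of these comparisons the log2 fold changes are those of ages that share the 3 P30 mice, so they are not independent.

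The widest intervals bound what the comparison with P30 could miss. For mt-Nd5, a complex I subunit in the proton-pumping membrane arm, the P30 mice had 2167, 2728 and 3265 CPM and the P32 mice 1330, 1987 and 2589 CPM. The P34 mice had 4566, 3227 and 3398 CPM, and the P38 mice 4894, 3083 and 3274 CPM. The P34 and P38 values each overlapped P30 through mouse 3. The log2 fold change against P30 was -0.47 at P32 (95% interval -1.05 to 0.12, edgeR adjusted p = 0.698), 0.46 at P34 (-0.13 to 1.04, adjusted p = 0.583) and 0.46 at P38 (-0.12 to 1.05, adjusted p = 0.847). Without mouse 4 the log2 fold change of mt-Nd5 at P32 was -0.25 and without mouse 6 it was -0.71, without mouse 7 it was 0.28 at P34, and without mouse 10 it was 0.22 at P38. The intervals hold no change as well as changes past the 0.5 of the call rule.

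For mt-Co1, the subunit that holds the oxygen-reducing site of complex IV, CPM were 4561, 5138 and 6100 at P30 and 3061, 4337 and 5066 at P32. At P34 they were 8278, 5649 and 6160, and at P38 8152, 5640 and 6138. Its log2 fold change against P30 was -0.34 at P32 (95% interval -0.84 to 0.16), 0.35 at P34 (-0.15 to 0.84) and 0.34 at P38 (-0.16 to 0.83), and -0.16 without mouse 4, 0.17 without mouse 7 and 0.16 without mouse 10 at these ages. For mt-Cytb, the only mitochondrially encoded subunit of complex III, the P30 mice had 6287, 6035 and 7409 CPM, the P32 mice 4761, 5568 and 6642, the P34 mice 9857, 6875 and 7152, and the P38 mice 9860, 6077 and 7121. Each later age overlapped P30, and the log2 fold changes of mt-Cytb were -0.22, 0.28 and 0.22 in turn (-0.11 without mouse 4 and -0.35 without mouse 6, 0.09 without mouse 7, and -0.00018 without mouse 10 and 0.37 without mouse 11).

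The other complex I members of the heavy strand differed less from P30 than mt-Nd5 did. Mean CPM of mt-Nd1 were 4289 ± 268 at P30, 3834 ± 532 at P32, 5090 ± 1088 at P34 and 5036 ± 1294 at P38 (SD, n = 3 each). For mt-Nd2 they were 2103 ± 173, 1684 ± 402, 2527 ± 575 and 2535 ± 764 in the same order. The log2 fold changes at P32 were -0.16 for mt-Nd1 and -0.32 for mt-Nd2, with -0.09 and -0.16 without mouse 4 and -0.28 and -0.51 without mouse 6. The P30 mice were tightest in mt-Nd4, with 2332, 2325 and 2442 CPM, and the P32 mice had 1735, 2074 and 2316 CPM. This was the only member whose P32 and P30 values did not overlap, with the highest P32 value just under the lowest P30 value, beside 4.39% of all genes that were lower without overlap. Its log2 fold change at P32 was -0.21 (95% interval -0.67 to 0.24, edgeR adjusted p = 0.738), and -0.11 without mouse 4. At P34 and P38 it was 0.21 and 0.24, with values that overlapped P30, and 0.01 without mouse 7 and -0.02 without mouse 10.

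**Figure D3:**
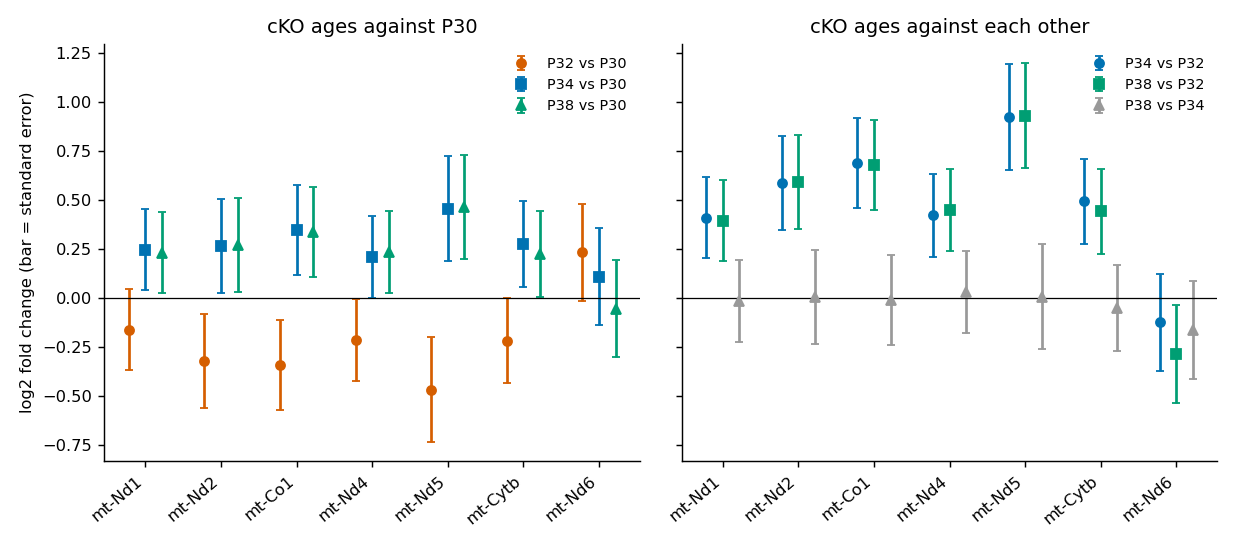
Log2 fold changes of the 7 measured genes with their standard errors, for the cKO ages against P30 (left) and against each other (right). The largest values are those of mt-Nd5 at P34 and P38 against P32 (0.92 and 0.93), and P38 against P34 lies near 0.

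The larger differences were between cKO ages. From P32 to P34 the log2 fold change was 0.92 for mt-Nd5 (95% interval 0.34 to 1.51, edgeR adjusted p = 0.0962), 0.69 for mt-Co1 (0.19 to 1.19, adjusted p = 0.108), 0.59 for mt-Nd2 (0.06 to 1.11, adjusted p = 0.150) and 0.49 for mt-Cytb (0.02 to 0.97, adjusted p = 0.173). None was called (0 of 7, beside 0.242% of all genes), while these 4 had an unadjusted p of at most 0.05, beside 13.5% of all genes that were higher by that measure. The values of 5 members (mt-Co1, mt-Cytb, mt-Nd2, mt-Nd4 and mt-Nd5) did not overlap between P32 and P34, beside 14.8% of all genes that were higher without overlap. DESeq2 called 2 members in this comparison, mt-Nd5 (adjusted p = 0.00981) and mt-Co1 (adjusted p = 0.0217), where it called 1422 of 16443 genes (8.65%) against 45 of 18628 by edgeR. Without mouse 4 the log2 fold change was 0.71 for mt-Nd5 (edgeR adjusted p = 0.248), 0.51 for mt-Co1, 0.43 for mt-Nd2 and 0.38 for mt-Cytb. Without mouse 7 it was 0.38 for mt-Nd2 and 0.31 for mt-Cytb. For mt-Nd5 it was 0.75 without mouse 7, and without mouse 6 it was 1.17 (adjusted p = 0.0215) with 2 members and 2730 genes in all called. Lens markers also differed between these ages, with 37949, 28564 and 642 CPM in P32 mice 4, 5 and 6 and 238 to 661 CPM in the P34 mice, as did 3 smooth muscle markers (median 34.8 CPM at P32 and 5.14 CPM at P34). The smooth muscle markers were higher still at P30 (median 150 CPM, 18.8 to 169), above every P34 mouse (at most 6.10 CPM) and every P38 mouse (at most 14.6 CPM). Within P32 the members were lowest where lens markers were highest (mouse 4), and so they were within P34 (mouse 8, 661 CPM of lens markers). At P30 and P38 the mouse with the highest lens markers (mouse 3 and mouse 10) had the highest members. The part of these tissues in the differences was not tested.

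From P32 to P38 the pattern was alike, with the same P32 mice in the comparison. The log2 fold change was 0.93 for mt-Nd5 (95% interval 0.34 to 1.52, edgeR adjusted p = 0.117), 0.68 for mt-Co1 (0.18 to 1.18, adjusted p = 0.136) and 0.59 for mt-Nd2 (0.07 to 1.11, adjusted p = 0.178). None was called (0 of 7, beside 0% of all genes), and these 3 had an unadjusted p of at most 0.05, beside 12.3% of all genes. The values of mt-Co1 and mt-Nd5 did not overlap, beside 13.3% of all genes that were higher without overlap. DESeq2 called the same 2, mt-Nd5 (adjusted p = 0.0112) and mt-Co1 (adjusted p = 0.0296), where it called 929 of 15362 genes (6.05%) against 0 of 18628 by edgeR. Without mouse 4 the log2 fold change was 0.71 for mt-Nd5 (edgeR adjusted p = 0.287), 0.50 for mt-Co1 and 0.43 for mt-Nd2. Without mouse 6 it was 1.18 for mt-Nd5 (adjusted p = 0.0281), with 2 members and 1968 genes in all called. Without mouse 10 it was 0.32 for mt-Nd2, and the median of the members went from 0.45 to 0.22. Between P34 and P38 the members lay within -0.16 and 0.03 on the log2 scale, 0 of 7 were called by edgeR (beside 0.199%) and by DESeq2 (beside 0.774%), and 0 had an unadjusted p of at most 0.05, beside 5.08% of all genes.

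Ratios within a library do not depend on scaling. The 6 heavy-strand members varied together over the 12 mice, with Pearson's r of 0.889 to 0.993 over their 15 pairs in log2 CPM, as a description of genes that share a precursor and a library. Their proportions still differed. Counts of mt-Nd5 per count of mt-Nd1 were 0.527, 0.656 and 0.710 in the P30 mice and 0.385, 0.551 and 0.583 in the P32 mice. They were 0.720, 0.712 and 0.773 in the P34 mice and 0.754, 0.769 and 0.710 in the P38 mice. The P34 and P38 mice thus lay close together and above every P32 mouse, while the P30 mice ran from the P32 range up to the lowest P38 value. Counts of mt-Co1 per count of mt-Nd1 were lowest in mouse 4 (0.887) and ranged from 1.11 to 1.41 in the other mice. No test was made of these ratios.

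The light-strand gene mt-Nd6, a complex I subunit encoded opposite the others, stood apart. Its CPM were 42.4, 34.9 and 32.5 in the P30 mice and 52.9, 32.8 and 43.4 in the P32 mice. The P34 mice had 30.0, 52.3 and 36.1 CPM and the P38 mice 47.1, 27.4 and 31.2 CPM. All ages overlapped, and its log2 fold change against P30 was 0.23, 0.11 and -0.05 in order of age (edgeR adjusted p = 0.752, 0.921 and 0.983). At P32 it was 0.06 without mouse 4 and 0.39 without mouse 5. Where the heavy-strand members were lowest, in mouse 4, mt-Nd6 was highest, just above P34 mouse 8. Per 1000 counts on the 6 heavy-strand members, mt-Nd6 had 1.97, 1.56 and 1.25 counts in the P30 mice, 3.38, 1.70 and 1.88 in the P32 mice, 0.841, 2.11 and 1.40 in the P34 mice, and 1.29, 1.19 and 1.21 in the P38 mice. Over the 12 mice the log2 CPM of mt-Nd6 and the mean of the 6 heavy-strand members had a Pearson's r of -0.23 (permutation p = 0.474, adjusted p = 0.712 over 3 relations) and a Spearman's rho of -0.28 (permutation p = 0.379, adjusted p = 0.569), and r was 0.14 without mice 4 and 8 and -0.06 within ages. The other 2 relations, of the same mean with the percent of reads on no gene and with the percent of reads with no unique position, had r of -0.40 and -0.10 and did not pass either. Both changed sign without the 2 farthest mice (0.55 without mice 7 and 10, and 0.44 without mice 4 and 7), and within ages they were -0.52 and 0.21. The strand setting of the counting is not given in the sources used here, and if strand was not used, reads of mt-Nd6 and of RNA opposite to it could not be told apart.

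**Figure D4:**
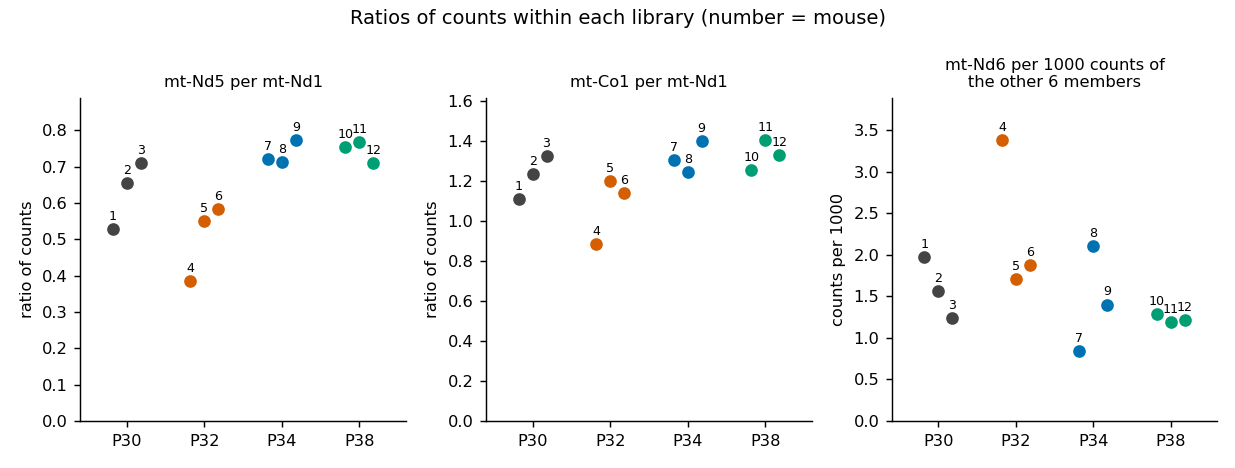
Counts of mt-Nd5 and of mt-Co1 per count of mt-Nd1, and counts of mt-Nd6 per 1000 counts on the 6 heavy-strand genes, in each mouse by age. Mouse 4 is lowest in the left and middle panels (0.385 and 0.887) and highest in the right one (3.38).

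Rods make up most retinal cells, so the summed members were set beside summed markers of rods. In bulk retina, fewer cells of a type and less RNA per cell cannot be told apart. The 5 rod markers summed to 59319 to 65477 CPM in the P30 mice and 53985 to 58731 CPM in the P32 mice. The P34 mice had 67322 to 90451 CPM and the P38 mice 65922 to 99717 CPM, and mice 7 and 10, highest in the members, were highest in these as well (90451 and 99717 CPM). Per CPM of rod markers, the members had 0.376 ± 0.025 CPM at P30, 0.343 ± 0.060 at P32, 0.371 ± 0.032 at P34 and 0.352 ± 0.013 at P38 (SD, n = 3 each). Mouse 4 had 0.277 and every other mouse had 0.334 to 0.399. The part of rod RNA in the differences of the members between ages was not tested.

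**Figure D5:**
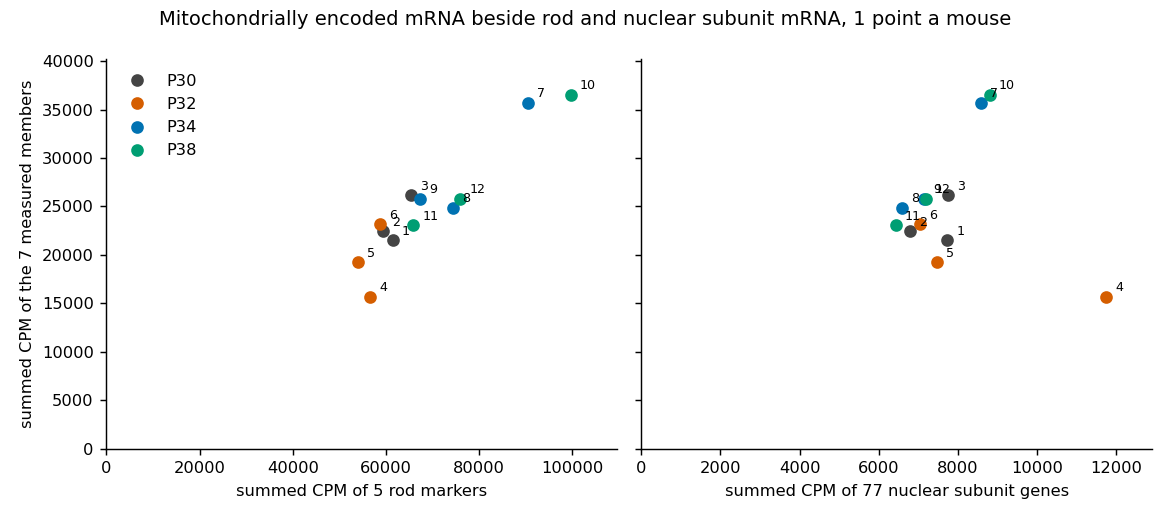
Summed CPM of the 7 measured members against summed CPM of 5 rod markers (left) and of 77 nuclear genes for respiratory subunits (right), 1 numbered point per mouse, all axes from 0. Mice 7 and 10 are high in both members and rod markers, and mouse 4 combines the lowest members (15687 CPM) with the highest nuclear subunits (11742 CPM).

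The nuclear genes for subunits of complexes I, III, IV and V were set beside the mitochondrially encoded ones. Of 77 tested, 72 were on the positive side at P32 against P30 (median log2 fold change 0.29, all genes -0.0088), with 0 called by edgeR (beside 0% of all genes) and 1 at an unadjusted p of at most 0.05 (1 of 77, beside 5.64%). That was Atp5d, a subunit of the central stalk of ATP synthase, at 0.60 (edgeR adjusted p = 0.698). This rested on mouse 4: without it 22 of 77 were positive and the median was -0.04, where the members had 1 of 7 positive and a median of -0.11. Members per nuclear subunit CPM were 2.78, 3.30 and 3.37 in the P30 mice, 1.34, 2.58 and 3.29 in the P32 mice, 4.16, 3.78 and 3.61 in the P34 mice, and 4.15, 3.59 and 3.59 in the P38 mice. Mouse 4 was lowest, and all P34 and P38 mice were above all P30 and P32 mice; no test was made of this ratio. At P34 against P30, 29 of 77 nuclear subunits were positive (median -0.03), and at P38 26 of 77 (median -0.04), with 0 called in either by edgeR (beside 0.66 and 0% of all genes), and before adjustment 2 and 1 were lower at p not above 0.05, where 10.5 and 5.64% of all genes passed in either direction. From P32 to P34 their median was -0.33 with 4 of 77 positive, beside 47.8% of all genes, and 0.03 with 44 of 77 positive without mouse 4, where the median of the members was 0.49 with it and 0.38 without it (0.31 without mouse 7).

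The same was seen within each complex. At P32 against P30 the medians were 0.31 for complex I (36 of 37 positive), 0.29 for complex III (8 of 9), 0.30 for complex IV (12 of 14) and 0.22 for complex V (16 of 17), and without mouse 4 they were -0.03, -0.06, -0.09 and -0.02. Ndufab1, an acyl carrier protein of complex I, had 27.3 CPM at P30, 21.5 at P34 and 21.8 at P38 on average (log2 fold change -0.34 and -0.32, edgeR adjusted p = 0.382 and 0.847). Cox7c, a small subunit of complex IV, had few counts, at 2.21 ± 0.077 CPM at P30, 1.78 ± 0.74 at P32, 1.23 ± 0.064 at P34 and 1.57 ± 0.35 at P38 (SD, n = 3 each). Its log2 fold change was -0.85 at P34 (edgeR adjusted p = 0.341, and the smallest unadjusted p of the complex IV list at that age) and -0.50 at P38 (adjusted p = 0.847). Windows of nuclear genes were not searched for copies elsewhere, so how many Cox7c reads went uncounted is not known.

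Genes that act on mitochondrial genes were examined from 4 lists, in which edgeR called 0 genes at any age. Over all genes, 48.5, 49.8 and 48.2% were positive at P32, P34 and P38, and 5.64, 10.5 and 5.64% had an unadjusted p of at most 0.05, which are the shares to set beside the counts that follow. Of 20 genes for mitochondrial transcription and DNA maintenance, 15 were positive at P32 (median log2 fold change 0.07, and 0.0043 without mouse 4), 6 at P34 (median -0.08) and 4 at P38 (median -0.09), with 1, 0 and 0 of them at an unadjusted p of at most 0.05. Twnk, the mitochondrial DNA helicase, had the smallest unadjusted p of that list at P32, with 18.1 ± 0.57 CPM at P30 and 21.9 ± 1.02 at P32 (log2 fold change 0.28, edgeR adjusted p = 0.698). Of 26 genes for mitochondrial RNA processing and stability, 18 were positive at P32 (median 0.10, and 7.2e-05 without mouse 4), 9 at P34 (-0.05) and 6 at P38 (-0.06), with 2, 1 and 1 at an unadjusted p of at most 0.05. Ptcd1, an RNA-binding protein of mitochondria, averaged 27.8 CPM at P30, 33.9 at P34 and 34.2 at P38 (log2 fold change 0.29 and 0.30, edgeR adjusted p = 0.320 and 0.847).

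Of 18 regulators of mitochondrial genes, 4 were positive at P32 (median -0.18, and -0.06 without mouse 4), 9 at P34 (0.03) and 10 at P38 (0.04), with 2, 1 and 1 at an unadjusted p of at most 0.05. Ppargc1b, a coactivator of nuclear genes for mitochondria, had 44.99 ± 1.78 CPM at P30 and 36.1 ± 0.69 at P32 (log2 fold change -0.32, edgeR adjusted p = 0.698), and its relative Ppargc1a had 62.3 ± 4.30 and 51.8 ± 9.34 CPM (-0.27, adjusted p = 0.698). The 1 regulator at P34 was Ppara, with 0.34 ± 0.18 CPM at P30 and 1.99 ± 3.09 at P34 (log2 fold change 2.59, edgeR adjusted p = 0.425). The 1 at P38 was Esrrb, an orphan nuclear receptor expressed in rods. Esrrb averaged 388 CPM at P30, 482 at P34 and 528 at P38 (log2 fold change 0.31 and 0.45, edgeR adjusted p = 0.514 and 0.847). Of 82 genes for mitochondrial ribosome proteins, 74 were positive at P32 (median 0.22), which became 28 of 82 (median -0.03) without mouse 4, and 31 and 29 were positive at P34 and P38, with 2, 0 and 0 at an unadjusted p of at most 0.05.

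The genes whose log2 CPM over the 12 mice were most like the mean of the 7 members, among 10357 nuclear genes with a mean of at least 10 CPM, were Lgalsl (Pearson's r = 0.98), Vps35 (0.97), Copg2 (0.97), Stx3 (0.97) and Ubr7 (0.97). Stx3, a syntaxin of PR synapses and inner segments, ranged from 654 to 1127 CPM. The most opposite were Ppp1r12c (r = -0.96), Dguok (-0.94), Traf5 (-0.93), Lemd2 (-0.93) and Atp13a1 (-0.93). Dguok, the mitochondrial deoxyguanosine kinase that supplies nucleotides for mitochondrial DNA, ranged from 13.1 to 27.1 CPM. These are the extremes of many correlations over 12 libraries that share depth and cell makeup, and they are a description only.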

How the data were processed

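Whole-retina RNA of 12 mice (4 ages, 3 mice each) was analysed. The authors prepared stranded, poly(A)-selected libraries, read 50 bp from one end, aligned to mm10 by STAR 2.5.3a, counted reads per gene of Ensembl with HTSeq 0.6.1p1 in union mode, and deposited these counts as whole numbers without normalization. Reads with more than 1 position were not counted, so a read that fits both a gene and an identical copy enters neither count. The deposited counts were scaled to CPM by TMM (edgeR 4.0.16, R 4.3.3), genes were kept by filterByExpr over the 4 ages, and all 12 mice entered 1 quasi-likelihood fit with no covariate. The 9 cKO mice were also compared with P30 in a fit of 2 groups. P-values were adjusted over the 18628 genes tested, and calls were made at an adjusted p not above 0.05 with a difference of 0.5 or more on the log2 scale. The standard error is the log2 fold change divided by the square root of F. The 95% intervals use the total degrees of freedom of the fit, residual plus prior (11.84 in the fit of 4 ages). DESeq2 1.42.0, other scalings and filters, sex as a covariate and leaving out each mouse were alternatives. The procedure was tested on simulated counts.

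Symbols, positions and mRNA sequences came from GENCODE M21 (GRCm38), which named 99.9% of genes. Named genes were the 10 members, the other mitochondrially encoded genes and their nuclear copies, the 3 list genes of smallest p in each comparison with P30 (of which those described are a part), and the 5 genes most and least like the mean of the members, for which the 7 tested members were used because 3 hold almost no counts. The members and lists were chosen with earlier results of these data known. The per-window levels, and the list medians without P32 mouse 4, were chosen after seeing the data. Floors from counts cover counting error only, and the intervals of fold changes carry the spread between mice.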

Additional observations from a re-analysis of the deposited data

Results flagged for a closer look

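Among 13 measures examined over the 9 cKO mice, 1 mouse lay far from the others in 1 measure: mt-Nd6 per 1000 counts of the heavy-strand members was 3.38 in P32 mouse 4, with a gap to its nearest neighbour above the critical share of the range (0.493 for 9 samples). Chance gives such a gap in about 1 in 20 groups, or 0.65 gaps over 13 measures, which are not independent here.

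Reads with no unique position, which enter no gene count, were above the highest P30 value (27.2%) in 3 cKO mice: 32.2% (P32 mouse 4), 29.3% (P34 mouse 7) and 28.5% (P38 mouse 10). Mouse 4 had the lowest and mice 7 and 10 the highest level of the measured members. How much of these reads is mitochondrial was not tested.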

How the results depend on the processing

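Of 560 recomputed log2 fold changes of members (5 comparisons), 541 kept their sign and side of the threshold, 9 became called and 10 changed sign. In P34 vs P32, 1 member was called without the filter on low counts (mt-Nd5, edgeR adjusted p = 0.0427) and 2 by DESeq2. In P38 vs P32, DESeq2 called 2. Leaving out 1 mouse gave 0 to 2 called members in both comparisons, and the 2 came without P32 mouse 6. Of the sign changes, 1 came with sex as a covariate (mt-Nd6 in P34 vs P30, -0.10). The others came from leaving out 1 mouse, with log2 fold changes that ranged as follows: mt-Nd6 from -0.15 (without mouse 8) to 0.27 in P34 vs P30, from -0.32 to 0.10 in P38 vs P30 (above 0 without mouse 1, 11 or 12), and from -0.38 to 0.052 in P34 vs P32 (above 0 without mouse 4 or 7). In P38 vs P30, mt-Cytb ranged from -0.00018 to 0.37, mt-Nd2 from -0.010 to 0.41 and mt-Nd4 from -0.017 to 0.38, each lowest without mouse 10. In P38 vs P34, 23 of 112 signs changed, and with the 9 cKO mice as 1 group 6 of 147. The cause was not tested. Genes called overall ranged over the alternatives from 0 to 25 (P32 vs P30, 0 as reported), 46 to 369 (P34 vs P30, 123), 0 to 45 (P38 vs P30, 0), 11 to 2730 (P34 vs P32, 45), 8 to 144 (P38 vs P34, 37), 0 to 1968 (P38 vs P32, 0) and 0 to 46 (9 cKO mice, 10). Scaling by library totals moved the median of all genes to -0.11 in P34 vs P32 and -0.14 in P38 vs P32.

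Of all reads in the files, the median share on the members was 1.45, 1.25, 1.64 and 1.58% at P30, P32, P34 and P38. Shares of the members' counts at P30 per kilobase of gene were 17.9% (mt-Co1), 30.3% (mt-Cytb), 23.7% (mt-Nd1), 10.7% (mt-Nd2), 9.11% (mt-Nd4), 7.83% (mt-Nd5) and 0.377% (mt-Nd6). Per kilobase of unshared windows they were 26.9% (mt-Co1), 22.5% (mt-Cytb), 17.7% (mt-Nd1), 8.68% (mt-Nd2), 17.7% (mt-Nd4), 6.18% (mt-Nd5) and 0.295% (mt-Nd6). No paired analysis was possible because no mouse number is shared between ages. With 3 mice per age, changes inside the intervals given for the comparisons with P30 could not be told apart from no change.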
